A study of Mus musculus with 2 samples.

Results

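The replication-dependent histone genes were described in the adrenal gland of newborn mice. They were taken by name: every gene whose symbol starts with Hist1h, Hist2h, Hist3h or Hist4 and that has a protein-coding transcript, 67 of 55536 annotated genes. Of these, 6 encode the linker histone H1, 18 encode H2A, 18 encode H2B, 12 encode H3 and 13 encode H4. The study measured total RNA, reduced in ribosomal RNA, in 2 libraries of this gland, taken at an age of 4 days from B6CASTF1/J males, an F1 hybrid of the C57BL/6J and CAST/EiJ strains with no treatment or other allele in the labels. Each library was made from 300 ng of RNA with ERCC spike-in transcripts. The 2 libraries form 1 group. The sample characteristics number them as different males, although a shared description repeats one male number, so a comparison between them is one of libraries and not of conditions.

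Histones are the proteins that package DNA. Pairs of H2A, H2B, H3 and H4 form the nucleosome core, and H1 binds the DNA that enters and leaves it. The choice by name also took in testis histones and Hist2h2be, described below. The genes of this family are typically switched on when a cell enters S phase, so that new histones meet newly copied DNA. Their messages typically have no introns and, unlike other messenger RNAs, no poly(A) tail, although some annotated models, as for Hist1h2be, span introns. They end shortly after a conserved stem-loop that the stem-loop binding protein SLBP holds, and they are destroyed when DNA synthesis stops. A library that selects poly(A) RNA largely misses them, whereas total RNA retains them. Replication-independent variants, such as H3.3 and H2A.Z, come from separate genes with introns and poly(A) tails.

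The stem-loops are shown because they mark these messages. A 16-base pattern (6 paired bases, a loop of 4 and the 6 partners) was found after the stop codon in the main transcript models of 46 members, 21 to 58 bases past the stop with a median of 31. Among genes with at least 100 bases annotated after the stop, 26 of 31 members held it within those 100 bases, against 19 of 19903 other protein-coding genes (0.0955%). The stem bases differed by class. One core was found in 26 genes, 3 of H1, 10 of H2A, 8 of H2B and 5 of H3. Another was found in 7 genes, all of H4. The capitals below mark stem and loop in the mm10 annotation, and the last line shows the rarer core with AA after the T run, held by 6 genes of H1, H2B and H3.
Hist1h1c (H1, chr13:23739507-23739532, plus strand): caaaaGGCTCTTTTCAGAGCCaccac
Hist2h2aa2 (H2A, chr3:96239779-96239804, minus strand): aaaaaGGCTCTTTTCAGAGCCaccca
Hist1h2bg (H2B, chr13:23571838-23571863, plus strand): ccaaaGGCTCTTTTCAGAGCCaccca
Hist1h3b (H3, chr13:23752815-23752840, plus strand): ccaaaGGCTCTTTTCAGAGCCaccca
Hist1h4h (H4, chr13:23531453-23531478, plus strand): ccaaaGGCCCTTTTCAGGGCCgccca
Hist1h2bk (H2B, chr13:22036295-22036320, plus strand): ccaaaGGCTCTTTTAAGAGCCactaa

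All 13 H4 genes encode the same protein of 103 residues, and codons 1 to 30 of 4 of them are shown to compare their coding bases. Their bases differ only in ways that leave the protein the same. The capitals mark bases that differ from the commonest base over the 13 genes, and codon 1 is the one after the initiator methionine. Hist1h4m and Hist1h4n have the same 312 coding bases, the only identical pair of the 78 pairs of H4 genes. The median pair differed at 19 coding bases and the most distant at 46.
Hist1h4h (chr13:23531118-23531207, plus strand): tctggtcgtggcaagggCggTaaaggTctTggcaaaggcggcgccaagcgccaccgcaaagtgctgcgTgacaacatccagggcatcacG
Hist1h4m (chr13:21811787-21811876, plus strand): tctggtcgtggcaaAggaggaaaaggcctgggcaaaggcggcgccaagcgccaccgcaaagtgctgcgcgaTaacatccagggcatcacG
Hist1h4n (chr13:21832066-21832155, minus strand): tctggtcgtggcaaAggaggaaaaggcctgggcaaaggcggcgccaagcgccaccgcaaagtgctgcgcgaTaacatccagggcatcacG
Hist4h4 (chr6:136804287-136804376, minus strand): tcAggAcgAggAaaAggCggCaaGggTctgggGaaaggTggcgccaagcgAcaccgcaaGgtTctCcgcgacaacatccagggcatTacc

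The 12 H3 genes encode a pair of proteins of 136 residues that differ by S96C, with positions counted from the residue after the initiator methionine. A serine there is known as H3.2 and is encoded by 8 genes, and a cysteine is known as H3.1 and is encoded by 4. One of the 8, Hist2h3c1, also has a second model that encodes a longer protein of 181 residues. The 51 bases from codon 88 on are shown, with codon 96 in capitals, for the highest gene of each type in the gene tables.
Hist2h3b (H3.2, chr3:96268958-96269008, plus strand): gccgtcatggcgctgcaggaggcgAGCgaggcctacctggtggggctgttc
Hist1h3h (H3.1, chr13:21717923-21717973, plus strand): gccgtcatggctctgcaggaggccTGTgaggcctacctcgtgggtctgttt

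The promoters are shown because the classes differed in them. RefSeq promoters (GRCm38.p6, 250 bases before to 50 after the start) were matched for 62 members. The CCAAT motif, on either strand, lay in all 50 windows of H1, H2A, H2B and H3 and in 3 of 12 windows of H4, against 37.41% of 32851 promoters of the table. TATAAA, anywhere in the window and on either strand, lay in 56.45% of the members' windows and in 13.62% of all. The octamer ATTTGCAT lay in 7 windows of H2A and 6 of H2B and in no window of the other classes, against 1.74% of all. AAACACA lay in 5 of 6 windows of H1, against 7.18% of all. CGTCAC lay in 6.45% of the members' windows and in 9.44% of all. Members whose starts face away from each other can share bases of their windows. The 120 bases before the RefSeq start are printed for 1 member of each class, with matches to any of these motifs on either strand in capitals. Counted matches can lie outside these bases: Hist1h4i was counted for TATAAA, although no match is printed for it.
Hist1h1e (H1, chr13:23622559-23622678, minus strand): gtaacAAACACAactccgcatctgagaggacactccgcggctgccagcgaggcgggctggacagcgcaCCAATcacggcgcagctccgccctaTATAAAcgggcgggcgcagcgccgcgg
Hist2h2ac (H2A, chr3:96220881-96221000, minus strand): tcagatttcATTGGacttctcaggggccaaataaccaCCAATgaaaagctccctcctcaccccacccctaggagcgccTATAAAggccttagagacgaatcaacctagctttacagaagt
Hist1h2bg (H2B, chr13:23571280-23571399, plus strand): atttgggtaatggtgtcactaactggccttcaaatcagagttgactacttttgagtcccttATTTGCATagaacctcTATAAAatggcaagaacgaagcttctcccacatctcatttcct
Hist1h3d (H3, chr13:23575643-23575762, plus strand): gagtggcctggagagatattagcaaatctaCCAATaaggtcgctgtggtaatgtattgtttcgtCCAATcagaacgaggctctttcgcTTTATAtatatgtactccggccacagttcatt
Hist1h4i (H4, chr13:22041363-22041482, minus strand): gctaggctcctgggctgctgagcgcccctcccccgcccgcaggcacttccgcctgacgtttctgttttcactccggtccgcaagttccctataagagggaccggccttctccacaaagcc

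Expected counts on genes totalled 32231301 for replicate 1 and 30292851 for replicate 2 in the gene tables, and each library also has transcript tables made without an alignment, called alignment-free here. The labelled tissue was checked against markers. The 8 adrenal cortex genes summed to 8667 and 6662 TPM (a count divided by the effective length of the transcript, with the same sum in both libraries), and all 6 chromaffin cell genes were above 1 TPM. Replicate 2 stood apart: 10 liver genes summed to 234 TPM in replicate 1 and 6047 in replicate 2, and all 10 were over 2-fold higher there. The 8 erythroid genes summed to 2413 and 4425 TPM. None of the 6 testis germ cell genes reached 1 TPM.

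As a group, the histone genes were abundant. A mean TPM of 1 or more was reached by 63 of the 67 members, against 60.4% of protein-coding genes, and in the alignment-free tables by 62, against 65.4%. The median member stood at 83.0 and 94.9 TPM in replicates 1 and 2, and at 90.2 TPM when each member's mean over the libraries was taken first, whereas the median over 22028 protein-coding genes was 3.35 TPM. A mean of 100 TPM or more was reached by 30 members, against 2.49% of protein-coding genes. Together the members took 0.345% of gene counts in replicate 1 (95% Wilson interval 0.3425% to 0.3465%) and 0.379% in replicate 2 (0.3763% to 0.3807%). These intervals cover counting error only, and they do not overlap. In bulk tissue, fewer cells in S phase and less histone RNA per cell cannot be told apart. The libraries also differed in liver, erythroid, cortex and chromaffin markers, and the part of this in the shares was not tested.

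**Figure D1:**
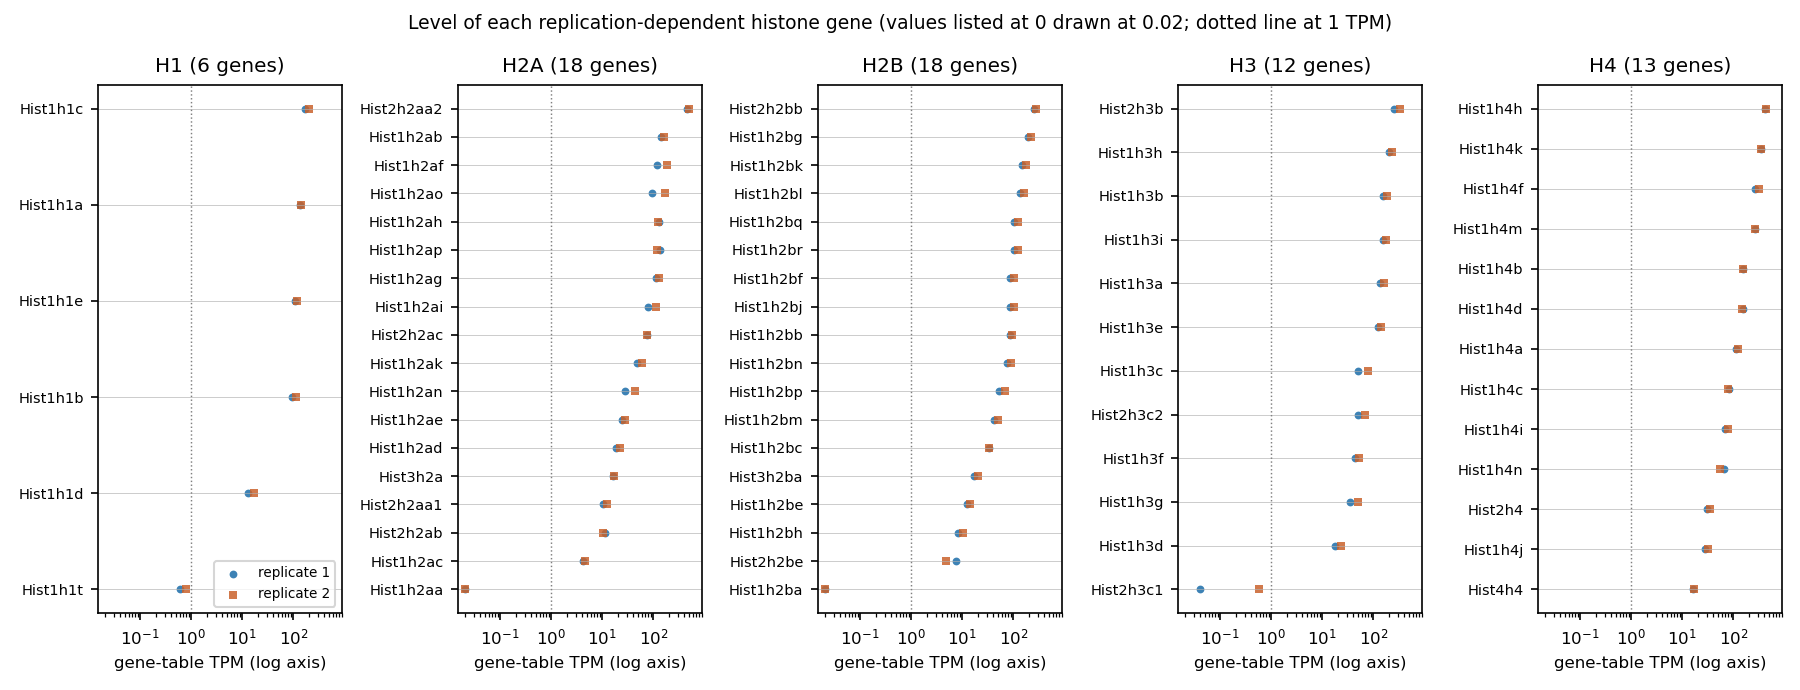
TPM of each of the 67 genes in the gene tables (horizontal log axis), by class, with circles for replicate 1 and squares for replicate 2. In each class the levels spread over more than the gap between the replicates, and Hist1h2aa and Hist1h2ba, listed at 0, are drawn at the left edge.

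Among the linker histones, 5 of 6 genes were detected. Hist1h1c, encoding the widely expressed H1.2, was the highest in the gene tables at 167 and 207 TPM. Hist1h1a (H1.1) followed at 137 and 144 TPM, Hist1h1e (H1.4) at 108 and 116 TPM, and Hist1h1b (H1.5) at 92.2 and 111 TPM. The ranges of Hist1h1e and Hist1h1b overlapped between the libraries, and those of the other neighbours did not. In the alignment-free tables Hist1h1a was highest at 292 and 290 TPM, above Hist1h1c at 233 and 271 TPM. Hist1h1d (H1.3) was at 13.1 and 17.1 TPM, but its annotated model of 7425 bases is the longest of all members, and its counts of 3183 and 3740 exceeded those of Hist1h1a (2915 and 2753). Hist1h1t, the H1 of spermatocytes, had 16 and 19 counts (0.590 and 0.780 TPM). The H1 genes differ from one another in sequence: the percent of 100-base windows found in no other gene was 100% for Hist1h1a, Hist1h1b and Hist1h1t and lowest for Hist1h1e at 75.31%.

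Of the 18 H2A genes, 17 were detected. Hist2h2aa2 was listed at 451 and 503 TPM, the highest of all members in the gene tables. Its coding sequence is identical to that of the neighbouring Hist2h2aa1, listed at 10.3 and 12.4 TPM, and the alignment-free tables gave the opposite order, with 0 for Hist2h2aa2 and 1110 and 1165 TPM for Hist2h2aa1. The summed counts of the pair were close in both kinds of table: 6567 and 6630 against 6319 and 6394. The kinds of table thus placed most of a similar number of reads on different members of the pair. Next in the gene tables came Hist1h2ab at 142 and 162 TPM, Hist1h2af at 121 and 181 TPM, and Hist1h2ao at 92.6 and 169 TPM. The lowest detected H2A gene was Hist1h2ac at 4.19 and 4.62 TPM, on a model of 2482 bases. By protein, 9 genes encode one identical H2A of 130 residues and together reached 632 and 791 TPM, and the pair on chromosome 3 reached 461 and 516 TPM. Hist1h2aa, the testis H2A, had 0 counts in both gene tables, which allows at most 0.0931 and 0.0990 CPM (counts scaled to a common library total), and 1 count in each alignment-free table.

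Of the 18 H2B genes, 17 were detected. In the gene tables the highest were Hist2h2bb at 248.9 and 284 TPM, Hist1h2bg at 194 and 222 TPM, Hist1h2bk at 150 and 177 TPM and Hist1h2bl at 133 and 161 TPM. In the alignment-free tables the highest were Hist1h2bb at 418 and 491 TPM and Hist1h2bf at 381 and 435 TPM. The most shared H2B protein is encoded by 6 genes, which summed to 583 and 703 TPM over the transcripts that encode it. Hist1h2bq and Hist1h2br have main transcripts of identical sequence, and the gene tables gave these transcripts equal counts, 948 each in replicate 1 and 1026 each in replicate 2. The lowest detected member was Hist2h2be at 7.67 and 4.84 TPM. It encodes an H2B known from olfactory neurons, where it is made outside S phase, and no stem-loop was found in its model of 2620 bases. Hist1h2ba, the testis H2B, was at 0 in both gene tables but at 214 and 257 TPM in the alignment-free tables (473 and 547 estimated counts). Of the 6 testis germ cell genes, Prm1, Prm2 and Tnp1 were at 0 in both gene tables, while Ddx4 had 40 and 24 counts, Dazl 6 and 7 and Sycp3 3 and 6.

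Of the 12 H3 genes, 11 were detected. Hist2h3b was the highest in both kinds of table, at 254 and 328 TPM in the gene tables, followed there by Hist1h3h at 200 and 228 TPM, Hist1h3b at 153 and 187 TPM, and Hist1h3i at 155 and 181 TPM. The last pair did not differ beyond the spread between libraries. Hist1h3d was the lowest detected at 17.8 and 22.8 TPM. The H3.2 type summed to 693 and 881 TPM and the H3.1 type to 526 and 623 TPM, so that H3.2 made up 56.9% and 58.6% of this sum. By counts its share was 69.1% and 70.4%, and by alignment-free TPM 66.5% and 67.5%. H3.2, with 8 genes against 4, was the larger part in both libraries by each of these measures. Hist2h3c1, which shares its coding sequence with Hist2h3c2, was listed at 2.56 and 29.8 counts with a posterior SD of 17.2 and 15.6, so the posterior SD was above the count in replicate 1.

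All 13 H4 genes were detected, and H4 had the highest summed TPM of the 5 classes in the gene tables, 2005 and 2094. In the alignment-free tables H2A was highest, at 3486 and 3923 TPM, and H4 reached 2666 and 2709. Hist1h4h, the highest H4 gene in both kinds of table, stood at 419 and 439 TPM in the gene tables, Hist1h4k at 347 and 354 TPM, Hist1h4f at 264 and 318 TPM, and Hist1h4m at 263 and 263 TPM. Hist1h4f and Hist1h4m differed by less than the spread of Hist1h4f between libraries, and the ranges of the others did not overlap. Hist4h4, alone on chromosome 6, was the lowest at 16.5 and 17.0 TPM with a model of 2863 bases. All 100-base windows of Hist1h4d and Hist2h4 occur in no other gene, whereas for Hist1h4m, whose codons are shown above, 11.88% do.

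**Figure D2:**
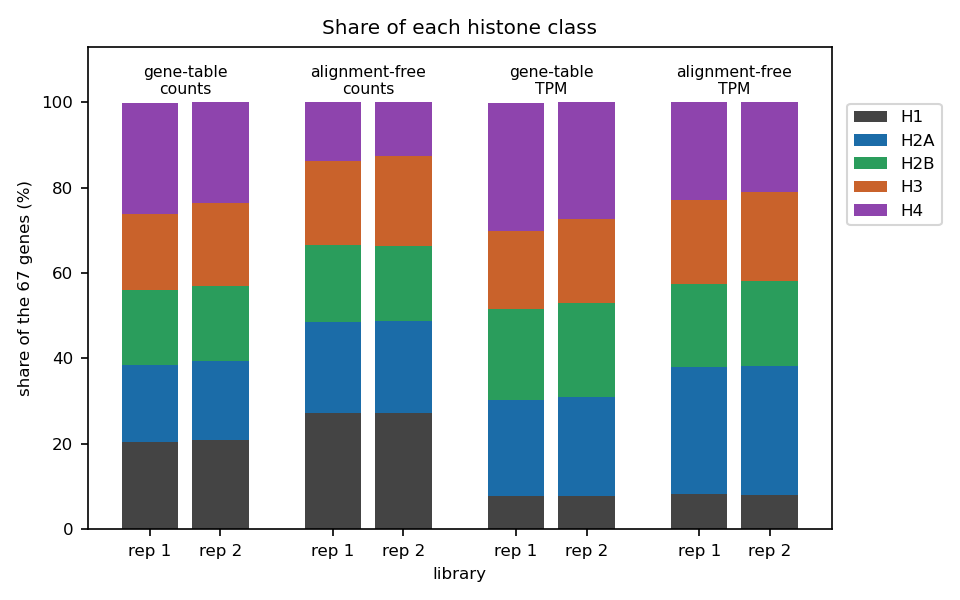
Share of the 67 genes' counts or TPM taken by each class in each library (stacked bars, percent of the 67 genes). H4 takes 26.1% and 23.7% of gene-table counts but 13.7% and 12.6% of alignment-free counts, and H1 takes under 10% of TPM in both kinds of table.

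The classes' shares depended on the unit. By gene-table counts, H4 held 24.9% ± 1.73 (SD, n = 2), H1 20.7% ± 0.332, H3 18.6% ± 1.08, H2A 18.2% ± 0.276 and H2B 17.6% ± 0.0566. The gaps among H2A, H2B and H3 were about as large as the spread of H3. By TPM, which divides by length, H1 with its longer messages held 7.77% ± 0.0106 (SD, n = 2) and H4 28.7% ± 1.89. In alignment-free counts H4 held 13.1% ± 0.813 and H1 27.1% ± 0.00707, so the order of these classes was reversed between the tables.

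The members sit in 4 clusters. The large one on chromosome 13 falls into a block of 23 genes (chr13:21715763-22043676), with 38.7% of the members' TPM in both libraries, and a block of 31 genes (chr13:23531050-23934851), with 43.5% and 43.4%. The 10 genes on chromosome 3 (chr3:96219865-96270132) held 17.1% and 17.3%. The pair on chromosome 11 held 0.493% and 0.491%, and Hist4h4 held 0.247% and 0.222%. The shares of the blocks were nearly the same in both libraries. In 13 pairs the members' starts lay within 1000 bases and headed apart, 12 of them an H2A with an H2B. TPM within a pair could be far apart in both kinds of table. Hist2h2ac was at 76.4 and 74.8 TPM beside Hist2h2be at 7.67 and 4.84 TPM, with 239 bases between their starts. In the alignment-free tables they were at 134 and 124 TPM and at 12.9 and 7.80 TPM. Their models differ in length, 520 and 2620 bases, and their counts were closer. Hist2h2ac had 1065 and 940 counts and Hist2h2be 640 and 364 in the gene tables. In the alignment-free tables these were 582 and 519 against 644 and 374, so Hist2h2be was higher in replicate 1. For other pairs the kinds of table differed in TPM. Hist1h2ae was at 23.98 and 28.2 TPM beside Hist1h2bg at 194 and 222 TPM in the gene tables, but at 170 and 181 TPM beside 167 and 196 TPM in the alignment-free tables. Hist1h2ag (112 and 132 TPM) and Hist1h2bj (84.6 and 103 TPM) were close in the gene tables, and farther apart in the other kind of table, at 118 and 125 TPM and at 191 and 215 TPM.

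The annotated ends of the models moved with the TPM. In 17 members the model stops within 2 bases of the stop codon and holds no stem-loop, and 13 of them are of coding length only. In 22 members the model runs more than 150 bases past the stem-loop. The first set had a median of 112 TPM and 1094 counts, and the second a median of 27.8 TPM and 1456 counts. Over the 65 members above 0, Spearman's rho between model length and mean TPM was -0.54, and that between length and mean count was -0.00. These are descriptions across genes of the same libraries. TPM divides by the model's length, and the part of the annotated ends in these levels was not tested.

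**Figure D3:**
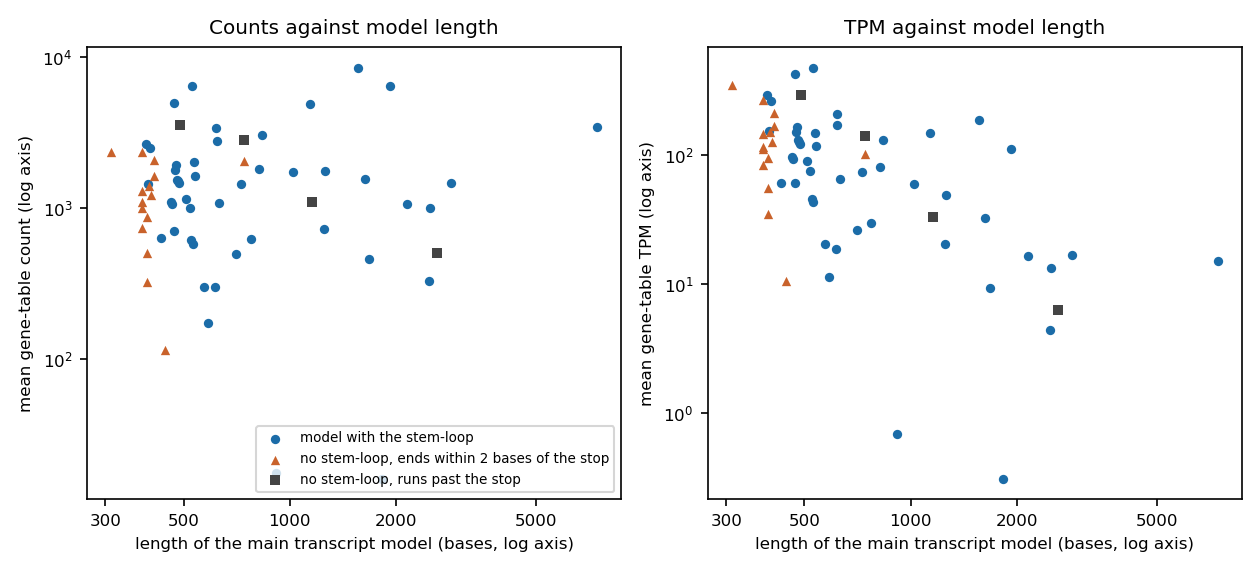
Mean gene-table counts (left) and TPM (right) of the 65 members above 0 against the length of the main transcript model, all on log axes, by whether the model holds the stem-loop. Counts show no trend with length, whereas TPM falls, as in Hist1h1d at 7425 bases.

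Members differ in how much of their sequence is found in no other gene. Windows were compared in the reference transcripts only, so any CAST/EiJ differences in these F1 males were not included. Of the members above 0, 15 had under 25% of their 100-base windows in no other gene, 27 had 25% to under 75%, and 23 had 75% or more. The posterior SD that the gene tables give for a count, a measure of how uncertainly reads were shared among genes, had medians of 12.7%, 2.36% and 0.875% of the count in these groups. It was 466 on 1059 counts for Hist1h2bq and 468 on 960 for Hist1h2br in replicate 1. It was 0 for Hist1h1a, Hist2h4 and Hist4h4. Single genes did not all follow these medians: Hist2h2aa2, with 0% of windows of its own, had a posterior SD of 0.85% and 1.00% of its count, and Hist2h3b, with 22.88%, had 0.98% and 0.93%. A small posterior SD did not go with close values in both kinds of table either, as Hist1h4d and Hist1h4f show in the comparison of the tables.

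The kinds of table were then compared, as log2 of the alignment-free TPM over the gene-table TPM with 0.1 added to each. The median member was 0.58 higher in the alignment-free tables, against 0.89 over 14322 other protein-coding genes and 1.08 over the 294 of them under 600 bases. Among 65 members at 1 TPM in either table, 25 were over 2-fold higher (38.5%), against 32.7% of all protein-coding genes and 58.5% of the short ones. Another 8 were over 2-fold lower (12.3%), against 0.368% of all and 7.48% of the short ones. Across genes, Spearman's rho between the kinds of table was 0.47 for the members and 0.98 for the other protein-coding genes. The replicates of the gene tables gave 0.98 for the members, so the order of the members was closer between the libraries than between the kinds of table.

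The largest differences included pairs with the same coding sequence, but also genes with most windows of their own. The 5 lowest were Hist2h2aa2 (-12.22 on the log2 scale, listed at 0 in the alignment-free tables), Hist1h2br (-8.15), Hist1h2ao (-7.68), Hist1h2bq (-7.24) and Hist1h4n (-3.17). The 5 highest were Hist1h2ba (11.20, listed at 0 in the gene tables), Hist2h2aa1 (6.64), Hist1h2ad (5.08), Hist2h3c1 (4.42) and Hist1h2be (2.86). Against 0 such a value depends on the 0.1 added. For the pair Hist1h2bq and Hist1h2br the sum differed too, 2019 and 2179 counts against 25.9 and 35.4, so the reads did not only change places within the pair. Among H4 genes, all 13 had fewer counts in the alignment-free tables, with a median log2 difference of -1.71, and Hist1h4f, with 81.85% of windows of its own, had 2553 and 2777 counts in the gene tables and 99.8 and 117 in the alignment-free tables. Hist1h4d, with 100%, had 5216 and 4545 counts against 679 and 662. Hist1h2be, with 89.66%, was higher in the alignment-free tables, where it had 4506 and 4566 counts.

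The tables also differ in effective length, the length that the TPM divides by. The gene tables subtract 99 bases from each model. The alignment-free tables subtract more, and for the 30 models under 500 bases their effective length was shorter by a median of 2.72-fold, against 1.16-fold for the 20 models of 1000 bases or more. Protein-coding genes took 37.1% and 39.8% of TPM in the gene tables and 76.9% and 78.2% in the alignment-free tables. By counts, which divide by no length, the median member was 0.73 lower on the log2 scale in the alignment-free tables, and 51 of 67 members were lower. For the 14322 other protein-coding genes the median log2 difference in counts was 0.16, and for the 294 under 600 bases it was -0.14, on the same side as the members. With TPM rescaled over protein-coding genes the median member was 0.41 lower.

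Between the libraries, the histone genes were slightly higher in replicate 2. Expected counts were scaled by TMM in edgeR, and each of 18160 kept genes was tested with a two-sided exact binomial test, adjusted by Benjamini-Hochberg over all of them. No member of the 64 kept was past an adjusted p of 0.05 and over 2-fold, against 3.98% of all kept genes (3.38% higher and 0.606% lower in replicate 2). At an unadjusted p under 0.05, 43 members passed and none of these was over 2-fold, and with DESeq2 size factors the numbers were the same. The share of all kept genes at this unadjusted threshold is not given here, so the 43 is not a result about the histone genes. Without the fold threshold 30 members were higher in replicate 2 (46.9%), against 15.9% of all genes, and 6 were lower (9.38%), against 17.6%. The median log2 ratio of replicate 2 over 1 was 0.15, against 0.00 over all kept genes, and 62 of the 64 were within 1.5-fold. Counting error is not the only one here: 8 of the 36 calls lay within 2 posterior SDs, among them Hist1h2bq and Hist1h2br. The 23 kept members with 75% or more of windows of their own had a median log2 ratio of 0.12. Of these, 7 passed the adjusted p upward and 3 downward, against 15.9% and 17.6% of all kept genes.

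By class, the median log2 ratio was 0.20 for H1, 0.15 for H2A, 0.18 for H2B, 0.19 for H3 and -0.05 for H4. These medians had the same sign with DESeq2 size factors, library totals and spike-in counts and in the alignment-free tables. All 11 kept H3 genes were higher in replicate 2 and 10 passed the test, whereas 5 of 13 H4 genes were higher, with 1 past the test upward (Hist1h4f, log2 ratio 0.18, adjusted p = 4.08e-05 by the exact binomial test) and 3 downward. Over all kept genes, 50% were higher in replicate 2, and 15.9% passed the test upward and 17.6% downward. The difference between the classes was not tested. The widest ratio upward was that of Hist1h2ao, with 1169 and 1922 counts (log2 ratio 0.78, adjusted p = 2.31e-47 by the exact binomial test), while Hist1h2ap, with the same coding sequence, went from 1703 to 1333 counts. The posterior SD of Hist1h2ao was 204 and 230 counts. The sum of this pair, 2872 and 3255 counts, moved far less. The widest downward was Hist2h2be, with 640 and 364 counts (log2 ratio -0.75, adjusted p = 1.26e-14 by the exact binomial test), a gene with 100% of windows of its own, and the alignment-free tables gave -0.75 as well. Hist1h1c was at 8078 and 9013 counts (log2 ratio 0.22, adjusted p = 2.67e-21 by the exact binomial test).

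**Figure D4:**
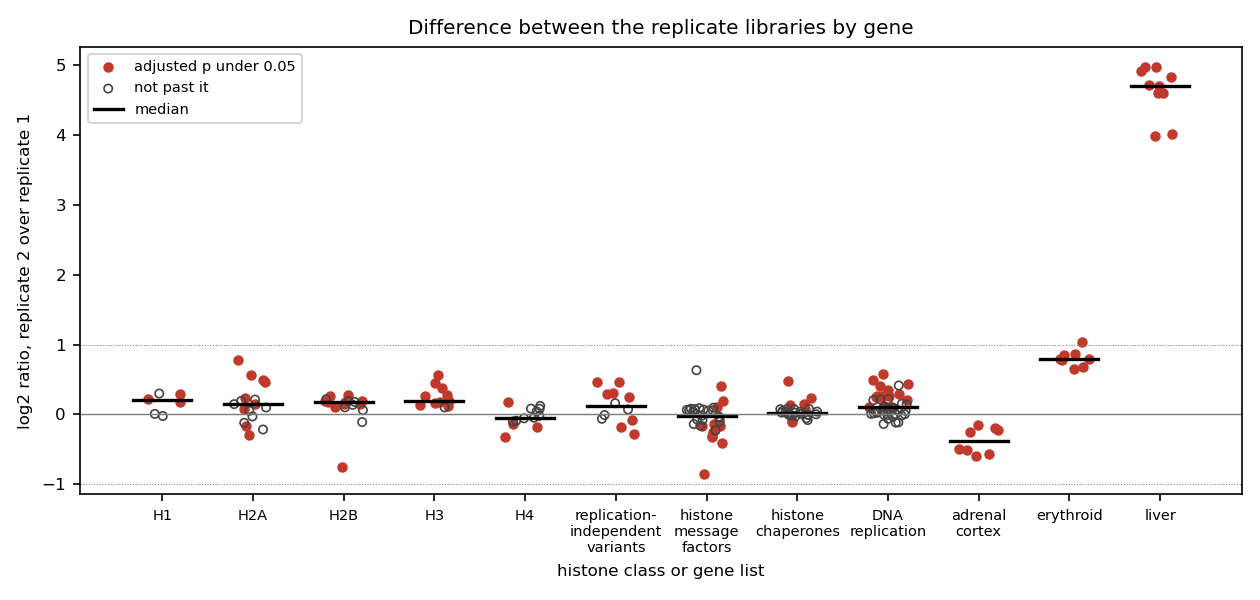
Log2 ratio of replicate 2 over replicate 1 for each kept gene (points, filled where the adjusted p is under 0.05) with the median of each class or list (bar), and dotted lines at 2-fold. The histone classes lie between -0.75 and 0.78, with the cortex markers below 0 and the liver markers near 4.7.

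Several marker lists also differed between the libraries, in both directions. The liver genes had a median log2 ratio of 4.71 and the erythroid genes of 0.79, all higher in replicate 2. The cortex genes had a median of -0.38, with all 8 lower, and the chromaffin genes of -0.24, with all 6 lower. The part of these marker lists in the histone difference was not tested. Of the DNA replication and S phase genes, all 41 were detected, with a median of 13.5 TPM and a median log2 ratio of 0.11. By the same test 15 were higher in replicate 2 (36.6%, against 15.9% of all kept genes) and none was lower (against 17.6%). On the higher side were 33 of 41 (80.5%), against 50% of all kept genes. Pcna, the sliding clamp of DNA polymerase, was at 43.5 and 50.03 TPM. Mcm6 and Mcm7, subunits of the replicative helicase, were at 32.1 and 34.7 TPM and at 29.3 and 36.2 TPM.

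The factors that make histone messages were present at modest levels. Of the 34 listed genes found, 31 were detected, with a median of 12.3 TPM. The highest were Srrt (73.0 and 83.5 TPM), which links the cap to 3' end formation, Cpsf1 (43.3 and 53.0 TPM) and Sympk (41.2 and 38.7 TPM), parts of the cleavage machinery. Of the 32 kept, 3 were past the adjusted p of the same test upward (9.38%, against 15.9% of all kept genes) and 8 downward (25%, against 17.6%), and none was over 2-fold. The histone chaperones, which carry histones to DNA, were all detected, 28 of 28, with a median of 22.9 TPM, and 5 were past the test upward (17.9%, near the 15.9% of all kept genes) and 2 downward (7.14%, against 17.6%). Npm1 (155 and 162 TPM), Set (105 and 115 TPM) and Rbbp7 (78.2 and 89.4 TPM) were the highest.

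The 67 members had a higher summed level than the replication-independent variants. Of the 17 variant genes, 12 were detected, with H3f3a at 368 and 368 TPM, H3f3b at 211 and 266 TPM, both encoding H3.3, and H2afz, encoding H2A.Z, at 118 and 128 TPM. The members summed to 6676 and 7654 TPM and the variants to 1045 and 1162 TPM, a log2 ratio of 2.70 ± 0.0312 (SD, n = 2). By counts the log2 ratio was 1.52 in both libraries. In both ratios the members' sum includes H2B (1438 and 1686 TPM) and H4 (2005 and 2094 TPM), for which no listed variant was detected. The ratios by class below leave H2B and H4 out. H3 was set against H3f3a, H3f3b and Cenpa, without H3f3c (23.1 and 34.1 TPM). For H3 the difference depended on the unit: by TPM the replication-dependent genes were higher by 1.04 and 1.20 on the log2 scale. By counts the H3 log2 ratio was -0.01 and 0.09. For H1 the log2 ratio of summed TPM over H1f0 and H1fx was 2.12 and 1.97, and for H2A over its 6 variants it was 2.28 and 2.47. By counts these became 1.66 and 1.54 for H1 and 0.84 and 1.02 for H2A.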

How the data were processed

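Total RNA was measured in 2 libraries of 1 group. The members and the gene lists were chosen with earlier results of these data known. The authors deposited, per library, a gene table and a transcript table with expected counts and TPM, made against mm10 and GENCODE M21, and a transcript table made without an alignment, summed per gene here. The deposited transcript tables also hold each transcript's percent of its gene. No source used here names the programs or says whether counting used strand. Entries named by a number instead of a gene (3 and 2 counts) and spike-ins were left out. Rounded counts of the 18160 genes that filterByExpr kept were scaled by TMM (edgeR 4.0.16 under R 4.3.3). DESeq2 1.42.0 gave alternative size factors. The exact binomial test doubled the smaller tail, and log2 ratios used a prior count of 0.5. P-values measure only the spread of reads between these libraries. The test was tried on simulated counts with known changes. These held counting error only, with no other variation between libraries and no uncertainty of shared reads. They therefore check the calculation and not its fit to these data. Shares have 95% Wilson intervals. Sequences came from the GENCODE transcripts, read by the annotation, and from RefSeq promoters. Named members were all H1 genes, the 4 highest and the lowest detected of each other class, those at 0, those sharing identical values, any past the test and 2-fold, the 5 furthest apart each way between tables, and the 3 highest of each list. Hist1h2ac, Hist1h2ae, Hist1h2ag, Hist1h2ap, Hist1h2bb, Hist1h2bf, Hist1h2bj, Hist1h4d, Hist1h4i, Hist2h2ac, Hist2h3c2 and Hist2h4 were named after their values were seen.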

Additional observations from a re-analysis of the deposited data

Results flagged for a closer look

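Reads were also assigned to histone-named pseudogenes, which are outside the 67 genes. Hist1h2al, a processed pseudogene on chromosome 13 outside both histone blocks, had 694 and 710 counts in the gene tables, above the 3 counts that a count of 0 allows, and 0 in the alignment-free tables. Hist3h2bb-ps, beside the pair on chromosome 11, had 52.5 and 101.8 counts in the gene tables, and 51.5 and 95.8 in the alignment-free tables.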

How the results depend on the processing

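The median level of 90.2 TPM was 121 TPM in the alignment-free tables, 238 TPM with TPM rescaled over protein-coding genes, 55.1 TPM over the 23 members whose protein no other member encodes and, in an alternative chosen after seeing the data, 31.1 TPM over the 24 members with 75% or more of windows of their own. Leaving out each replicate gave 83.0 to 94.9 TPM. The share of gene counts (mean 0.362%) was 0.255% in the alignment-free tables and 0.490% of protein-coding counts. In alignment-free counts the class shares were 27.1% for H1, 21.6% for H2A, 17.7% for H2B, 20.4% for H3 and 13.1% for H4, and by gene TPM 7.77% for H1, 22.8% for H2A, 21.8% for H2B and 28.7% for H4. The count of members past the test and 2-fold, 0 in the gene tables, was 1 in the alignment-free tables and 1 with no filter on low counts (Hist2h3c1 in both), 2 over 1.5-fold (Hist1h2ao and Hist2h2be), 36 with no fold threshold, and 28 of these over 2 posterior SDs (added after seeing the data). The table difference of 0.58 was reversed to -0.73 by counts and to -0.41 with rescaled TPM. The ratio of members, with H2B and H4 included, to variants, 2.70 on the log2 scale, was 2.54 in the alignment-free tables and 1.52 by counts. The median replicate ratio ran from 0.11 to 0.18 over its alternatives, and detection from 62 to 64 members. Of 35 named genes, 33 had a mean TPM in the alignment-free tables that moved by more than the spread between libraries. Other genes moved too: the median over 14322 other protein-coding genes was 0.89 higher on the log2 scale there. The share of all genes that moved is not given here, so the count is not a result about the histone genes. Among the named genes' replicate ratios under other settings, 10 passed the threshold that the main value missed, 5 no longer passed it, 7 changed sign in genes whose main value was not past it, and Hist1h2bk reversed to -0.067 in the alignment-free tables. The causes of the differences between settings were not tested. No paired analysis was possible because the series has 1 group.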
